A study of Mus musculus with 4 samples.

Results

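The genes described here are 10 genes of the axon and its initial segment, chosen by name: the neurofilament genes Nefl, Nefm, Nefh and Ina, the ankyrin genes Ank2 and Ank3, the spectrin gene Sptbn4, the adhesion genes Nfasc and L1cam, and the growth cone gene Gap43. All 10 were found among the 34968 gene symbols shared by the 4 libraries, and all 10 were among the 12975 genes tested. The libraries came from mouse embryonic stem (ES) cell lines built on a parental Dlx6-Cre; Ai9 line (strain C57/BL6), in which Cre made under Dlx6 regulatory sequence switches on the red reporter tdTomato. Both lines carried Nkx2-1 with the tetracycline transactivator under Nestin control, and a responder cassette encoding Dlx2 in the N/D line or Dlx2 with St18 in the N/D/S line, so that St18, a zinc finger transcription factor of the Myt1 family, was the designed difference. Each line was a clone grown out under hygromycin selection, so that line and clone cannot be told apart. Both were grown as embryoid bodies with XAV-939, a Wnt pathway inhibitor, and SAG, a Smoothened agonist, and differentiated for 12 days. The tdTomato+ cells were then sorted for poly-A RNA-seq, with 2 libraries per line. No source said that libraries came from separate cultures, so p-values measure only the spread between libraries.

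Neurofilaments are the intermediate filaments of neurons, and they fill the axon and set its calibre. The light chain (Nefl) forms the core with alpha-internexin (Ina), which appears early in development, while the medium (Nefm) and heavy (Nefh) chains add long side arms and the heavy chain accumulates late, as axons mature. At the axon initial segment, where action potentials start, ankyrin-G (Ank3) anchors sodium channels, neurofascin (Nfasc) and beta-IV spectrin (Sptbn4), while ankyrin-B (Ank2) acts along the axon shaft. L1cam is an adhesion molecule of growing axons that binds ankyrins, and Gap43 is a membrane protein of growth cones.

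Some facts of the 4 libraries touch every value below. The TPM tables held between 13504 genes above 0 (N/D replicate 1) and 20878 (N/D/S replicate 1). A value of 0 was listed in N/D replicate 1 for 613 of 6139 genes whose level reached 10 TPM in all the others, and the same count was at most 2 in any other library. St18 stood at 28.5 and 26.6 TPM in N/D replicates 1 and 2 and at 44.4 and 15.9 TPM in N/D/S replicates 1 and 2. This does not separate the lines, and the line names used here are those of the labels. The tables do not split transgene from endogenous St18. Tables of the number 1 libraries had 35197 rows and those of the number 2 libraries 35204.

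Promoter sequences are shown for the genes with a RefSeq entry on which the description by role turns: Ina for the neurofilaments, Ank2 for the ankyrins, and Nfasc and L1cam for the adhesion molecules. Entries matched 5 of the 10 genes (Ina, Ank2, Sptbn4, Nfasc and L1cam, with 13 start sites), and no entry was used for Nefl, Nefm, Nefh, Ank3 or Gap43. For genes with several starts (4 for Ank2, 2 each for Nfasc and L1cam), the window shown was picked because it held TAATTA or CTCAAG, after the matches were seen. Each line gives the 250 bases before one RefSeq start on GRCm38.p6, written 5′ to 3′ on the gene's strand, with the letters of searched motifs in capitals.
Ina, chr19:47014431-47014680, plus strand: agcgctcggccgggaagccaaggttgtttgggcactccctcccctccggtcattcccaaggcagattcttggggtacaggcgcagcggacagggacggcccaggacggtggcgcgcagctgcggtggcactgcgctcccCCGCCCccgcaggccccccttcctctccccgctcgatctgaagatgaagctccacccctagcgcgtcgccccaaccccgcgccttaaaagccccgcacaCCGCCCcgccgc
Ank2, chr3:126998453-126998702, minus strand: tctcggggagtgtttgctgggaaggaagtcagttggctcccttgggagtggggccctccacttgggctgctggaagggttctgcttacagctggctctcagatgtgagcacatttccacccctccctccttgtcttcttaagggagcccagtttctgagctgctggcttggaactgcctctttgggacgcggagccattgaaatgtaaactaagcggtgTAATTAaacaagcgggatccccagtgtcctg
Nfasc, chr1:132707327-132707576, minus strand: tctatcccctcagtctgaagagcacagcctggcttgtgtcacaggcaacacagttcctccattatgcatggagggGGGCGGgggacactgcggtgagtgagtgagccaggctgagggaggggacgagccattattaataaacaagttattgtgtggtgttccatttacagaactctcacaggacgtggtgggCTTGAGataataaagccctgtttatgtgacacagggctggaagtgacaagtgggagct
L1cam, chrX:73880835-73881084, minus strand: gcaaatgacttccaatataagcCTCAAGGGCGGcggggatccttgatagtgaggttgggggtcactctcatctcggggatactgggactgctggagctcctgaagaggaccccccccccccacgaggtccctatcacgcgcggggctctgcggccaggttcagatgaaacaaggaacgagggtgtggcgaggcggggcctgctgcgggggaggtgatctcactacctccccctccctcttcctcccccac
The capitals mark GGGCGG (the GC box of Sp factors), TAATTA (a homeodomain core) and CTCAAG (an Nkx2-1 core), searched on both strands. In the L1cam window the CTCAAG and GGGCGG matches overlap. The Ina window held 2 GC boxes and was 70.8% G and C, against a median of 52.4% over all 32851 windows of the same length. GGGCGG was in 8 of the 13 windows of these genes and in 32.7% of all windows. Every Sptbn4 window held it, and so did both L1cam windows, which overlap each other, so these windows are not separate genes. CTCAAG was in 2 of the 13 windows (one of Nfasc and one of L1cam) and in 13.3% of all windows, and TAATTA was in 1 (Ank2) and in 4.84%. TATAAA was in 1 (another Ank2 start) and in 12.4% of all windows. AAGTTT, the core of the Myt1 family to which St18 belongs, was in 0 of the 13 windows and in 12.8% of all windows. These letters were described only, and nothing about binding was measured.

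The genes were expressed at very different levels, and in 8 of the 10 the lowest library was N/D/S replicate 2 as labelled. In 9 of the 10 genes the values of the lines overlapped, and Ank3 was the exception. At an adjusted p under 0.05 (limma on log2(TPM + 1), Benjamini-Hochberg), 0 of the 10 genes differed between N/D/S and N/D in either direction, against 0% of the 12975 genes tested. At an unadjusted p under 0.05 the count was again 0 of 10, against 0.0231% of all genes higher and 0.0385% lower in N/D/S. Every fold change below is on the log2(TPM + 1) scale, N/D/S minus N/D, with its standard error (SE) and 95% interval, and each had an adjusted p of 1 (limma). Since the samples are bulk RNA, fewer neurons among the sorted cells and less of an RNA per neuron cannot be told apart.

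**Figure D1:**
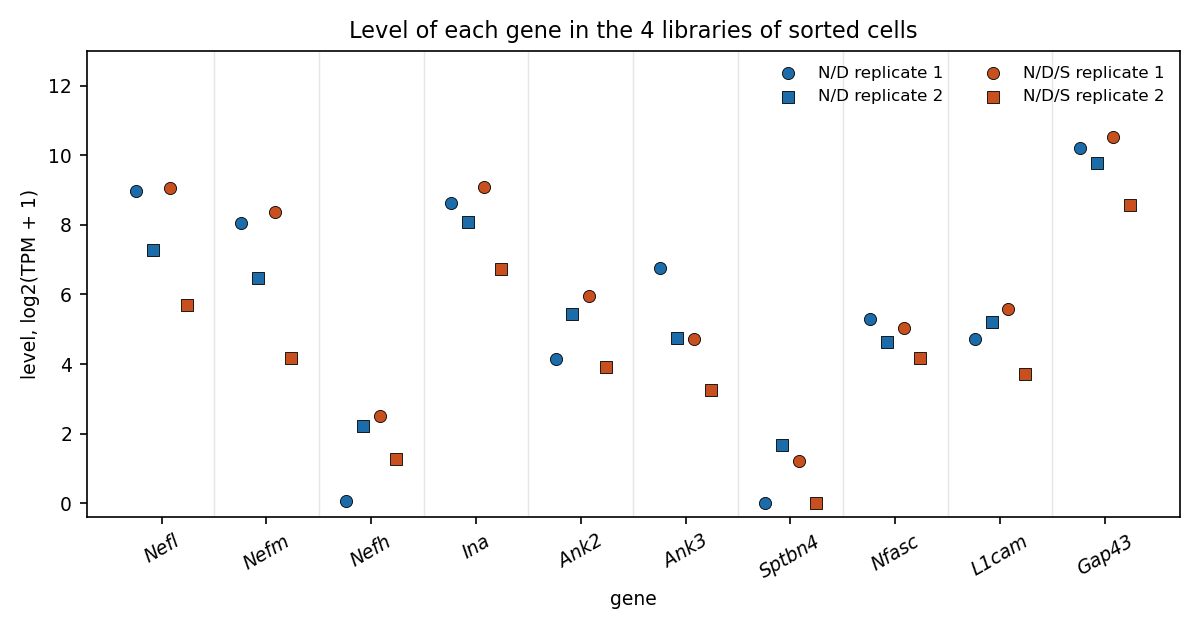
Level of each of the 10 genes as log2(TPM + 1) on the vertical axis, with 1 point per library (colour for the line, shape for the replicate number). The orange square, the library labelled N/D/S replicate 2, is the lowest point in 8 genes and for Sptbn4 shares the bottom, at 0, with N/D replicate 1.

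Of the neurofilament genes, Ina, Nefl and Nefm were abundant in every library and Nefh was not. Nefl (chr14:68083863-68089095, plus strand, GRCm38) stood at 501 and 154 TPM in N/D replicates 1 and 2 and at 529 and 50.7 TPM in N/D/S replicates 1 and 2. The number 1 libraries of both lines lay close together and above both number 2 libraries, so the lines overlapped fully. The fitted difference was -0.75 (SE 1.38, interval -4.02 to 2.52), while replicates of the N/D/S line differed 10.4-fold. Nefm (chr14:68082590-68124846, minus strand) gave 265 and 87.2 TPM in N/D and 328 and 16.9 TPM in N/D/S. It had the widest spread within the N/D/S line of the abundant neurofilament genes, 19.4-fold. Its difference between lines was -0.998 (SE 1.53, interval -4.62 to 2.62). Nefl and Nefm lie on opposite strands, and in GENCODE M21 1108 of the 3380 exon bases of Nefl are also exon bases of Nefm. The use of strand in quantification is not given in the sources used here, so reads in the shared stretch cannot be told apart.

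Ina (chr19:47014698-47025327, plus strand), the subunit typical of young neurons, was at 390.3 and 268 TPM in N/D and at 544 and 105 TPM in N/D/S. Here too the number 1 libraries were the higher ones within each line, the N/D/S values enclosed both N/D values, and the replicates of the N/D line were closer (1.46-fold) than those of N/D/S (5.17-fold). The difference between lines was -0.43 (SE 1.15, interval -3.15 to 2.29). Ina shares 456 of its 3240 exon bases with Nt5c2, on the other strand.

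Nefh (chr11:4938754-4948064, minus strand), the late heavy chain, was at 0.0411 and 3.65 TPM in N/D and at 4.66 and 1.41 TPM in N/D/S. It was near 0 in N/D replicate 1, the library with many genes listed at 0, and the other libraries stayed below 5 TPM. The part of that library's zeros in its value was not tested. Its fitted difference of 0.75 (SE 1.16, interval -2.00 to 3.49) was the only positive one of the neurofilament genes, and it became -0.33 without N/D replicate 1.

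The make-up of the neurofilament RNA moved with the library. The 4 subunits summed to 1156 and 513 TPM in N/D and to 1406 and 174 TPM in N/D/S. Of that sum Ina made 33.8% and 52.2% in N/D and 38.7% and 60.4% in N/D/S, so it was the largest share in every library but N/D replicate 1, and larger in the number 2 library of each line. Nefl made 43.3% and 30.1% in N/D and 37.6% and 29.1% in N/D/S. Nefm made 22.9% and 17.0% in N/D and 23.3% and 9.69% in N/D/S, which made the library labelled N/D/S replicate 2 the poorest in the medium chain. The heavy chain was below 1% of the sum in all 4 libraries, at most 0.808%. Between lines the mean share of Ina differed by 6.58 percentage points (two-sided exact permutation p = 0.667, where 2 libraries against 2 allow no p below 0.333). That difference was -4.27 points without N/D/S replicate 2 as labelled, -2.63 without N/D replicate 1 and 17.4 when N/D/S replicate 1 was left out, so its sign rested on single libraries. The ratio of Nefm to Ina was 0.679 and 0.326 in N/D and 0.602 and 0.160 in N/D/S, so the medium chain was low against alpha-internexin in both number 2 libraries.

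**Figure D2:**
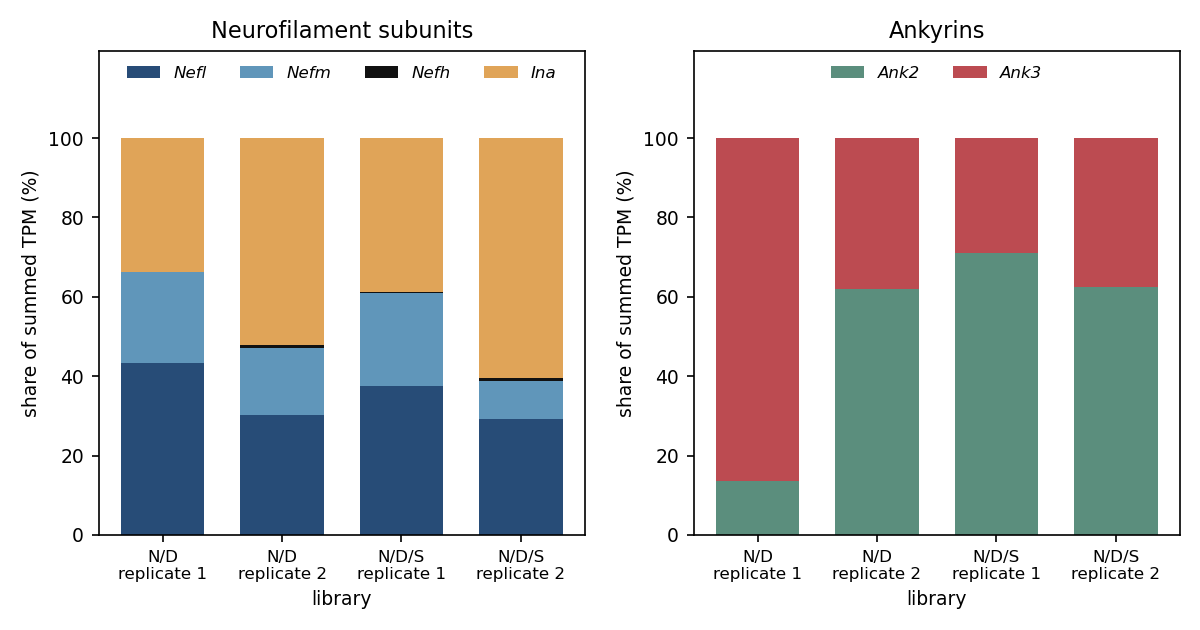
Share of the summed TPM (%) taken by each neurofilament subunit (left) and by Ank2 and Ank3 (right) in each library. Ina takes 52.2% and 60.4% in the number 2 libraries, and Ank3 takes 86.5% of the ankyrin sum in N/D replicate 1 and 29.1% to 38.0% in the others.

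Of the ankyrin and spectrin genes, Ank3 (chr10:69398773-70027438, plus strand), the organiser of the initial segment, gave 106 and 25.8 TPM in N/D and 25.1 and 8.51 TPM in N/D/S. Both N/D values were above both N/D/S values, by a margin of 25.8 against 25.1 TPM at the nearest. It was the only 1 of the 10 genes whose lines did not overlap, where 8.23% of all genes tested were lower and 8.69% higher in N/D/S without overlap. The difference was -1.77 (SE 1.16, interval -4.51 to 0.98), ranking 690 of 12975 by p, and it was the only gene of the 10 whose difference exceeded its residual standard deviation (1.24). It was -0.76 without N/D replicate 1. Leaving out N/D replicate 2 gave -2.77. Its direction was kept in every alternative run. Since its lines did not overlap, only runs that rescaled or normalized the libraries could have turned it.

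Ank2 (chr3:126921612-127499350, minus strand), the ankyrin of the axon shaft, had another order of libraries. It was at 16.6 and 42.1 TPM in N/D and at 61.3 and 14.1 TPM in N/D/S. Each line had a low and a high library, and the N/D/S values enclosed the N/D values. The difference was 0.15 (SE 1.15, interval -2.57 to 2.88), and it was -0.49 without N/D replicate 1. Of the summed Ank2 and Ank3 TPM, Ank3 made 86.5% and 38.0% in N/D and 29.1% and 37.6% in N/D/S. The mean share differed by -28.9 points (exact permutation p = 0.333, the smallest possible), and 3 of the 4 libraries lay within 10 points of each other. It was -4.61 points without N/D replicate 1 and -53.1 points without N/D replicate 2. The gene totals do not separate the many transcripts of these genes (47 annotated for Ank3 and 27 for Ank2), which include the long axonal forms.

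Sptbn4 (chr7:27356383-27447686, minus strand), the spectrin under the initial segment membrane, was barely detected. It was listed at 0 and 2.21 TPM in N/D and at 1.32 and 0 TPM in N/D/S. Each line had 1 library listed at 0, which can be a failed estimate, so no fold was formed. The model gave -0.24 (SE 1.10, interval -2.84 to 2.37).

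Of the adhesion genes, Nfasc (chr1:132564690-132741797, minus strand), which ankyrin-G holds at the initial segment, was at 38.0 and 23.8 TPM in N/D and at 32.0 and 17.0 TPM in N/D/S. Its lines overlapped, with the number 1 library higher in each, and it had the smallest residual standard deviation of the 10 genes (0.54, where the median gene tested had 1.03). The difference was -0.35 (SE 1.00, interval -2.71 to 2.01). L1cam (chrX:73853778-73896105, minus strand) was at 25.4 and 36.2 TPM in N/D and at 47.2 and 12.2 TPM in N/D/S. The highest and the lowest library both came from the N/D/S line, 3.88-fold apart. The difference was -0.31 (SE 1.08, interval -2.88 to 2.25).

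Nrcam and Chl1 are the other members of the L1 family of adhesion molecules. Summed over the 4 genes, the family gave 185 and 182 TPM in N/D and 333 and 49.9 TPM in N/D/S. Nfasc made 20.6% and 13.1% of the sum in N/D and 9.62% and 34.1% in N/D/S, so its share was highest in the library where the family was lowest. L1cam made 13.8% and 19.9% in N/D and 14.2% and 24.4% in N/D/S. The exact permutation p was 1 for the share of Nfasc and 0.667 for that of L1cam. Nrcam made 47.1% and 34.1% in N/D and 32.6% and 27.1% in N/D/S, without overlap. Its mean share differed by -10.8 points (exact permutation p = 0.333, the smallest possible) and by -17.3 to -4.25 points with 1 library left out. Chl1 made 18.5% and 33.0% in N/D and 43.6% and 14.5% in N/D/S (exact permutation p = 1).

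Gap43 (chr16:42248442-42340651, minus strand) had the highest level of the 10 genes in every library. It was at 1179.65 and 879 TPM in N/D and at 1457 and 379 TPM in N/D/S, between the percentiles 98.6 and 99.8 of all genes of a library. The N/D/S values again enclosed the N/D values. The difference was -0.45 (SE 1.09, interval -3.03 to 2.13). Tubb3, the neuronal beta-tubulin, was itself at 2048 and 1509 TPM in N/D and at 2774 and 2455 TPM in N/D/S, without overlap, which lowers any ratio to it in N/D/S. Set against Tubb3, Gap43 gave 0.576 and 0.582 of the Tubb3 TPM in N/D and 0.525 and 0.154 in N/D/S. Nefl gave 0.244 and 0.102 of the Tubb3 TPM in N/D and 0.191 and 0.0207 in N/D/S. Relative to Tubb3, the library labelled N/D/S replicate 2 was the lowest for both genes, but this order rested on the choice of Tubb3. Over the other 8 neuron markers taken singly, that library had the lowest ratio for 1 marker with Gap43 and for 4 with Nefl, and N/D replicate 2 for 5 and 4. Against Dcx, a microtubule protein of young neurons, Gap43 gave a ratio of 11.3 and 12.7 in N/D and of 11.9 and 21.2 in N/D/S, so the order turned.

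**Figure D3:**
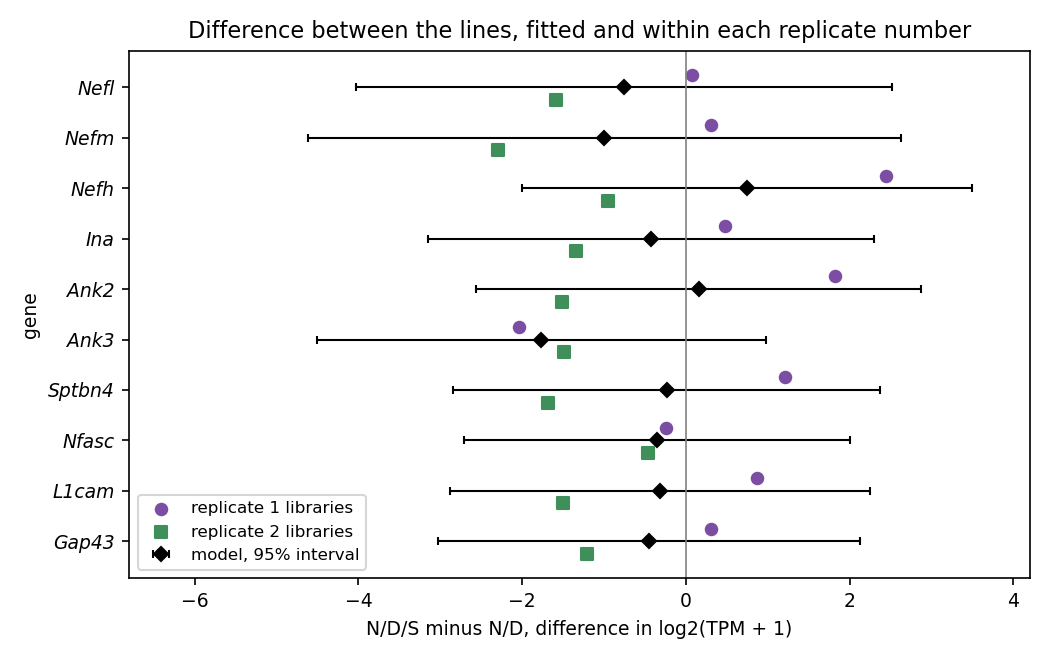
Difference in log2(TPM + 1), N/D/S minus N/D, for each gene: the model estimate with its 95% interval (black diamonds and bars) and the difference between the libraries of replicate number 1 (purple circles) and of number 2 (green squares). All 10 intervals include 0, all green squares lie below 0, and 8 of the 10 purple circles lie above it.

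The libraries were also set side by side by replicate number across the 10 genes. Nothing says that a number marks a shared culture or day. Over all genes tested, same-numbered libraries did not deviate together (r = 0.02). In 8 of 10 genes N/D/S was higher than N/D among the number 1 libraries and lower among the number 2 libraries, as in 56.6% of all genes tested, and the opposite pattern was seen in 0 of 10 and in 9.06%. Ank3 and Nfasc were lower in N/D/S at both numbers, as in 17.9% of genes, and 0 were higher at both, against 15.9%. The median difference of the 10 genes was -0.39, with 2 genes above 0, whereas the median of all genes tested was 0.26 and 61.4% of them lay above 0. Among genes that reached 1 TPM throughout, the medians were -0.44 for 8 of the 10 genes and -0.15 for all genes. Without the library labelled N/D/S replicate 2 the median of the 10 genes was 0.69, and that of all genes was 0.57. Without N/D replicate 1 the medians were -0.29 for the 10 genes and -0.29 for all genes. Without N/D replicate 2 they were -0.67 and 0.88, and without N/D/S replicate 1 -1.34 and 0.02. The sign of both medians and the size of the gap thus rested on single libraries. The 9 neuron markers had a median of -0.54 with 1 above 0, a shift of the same sign.

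The order of libraries was compared next. The library labelled N/D/S replicate 2 was the lowest in 8 of 10 genes (all but Nefh and Sptbn4), where 29.2% of all genes tested had their lowest value there, and 47.4% of the 7011 genes that reached 1 TPM throughout. Between the N/D/S libraries the median log2 difference, replicate 1 minus replicate 2, was 1.90 for the 10 genes and 0.69 for all genes tested. N/D replicate 2 exceeded the library labelled N/D/S replicate 2 by a median of 1.49 for the 10 genes and 0.62 for all genes. N/D replicate 1 was below N/D replicate 2 by a median log2 difference of -1.19 over all genes (replicate 1 minus replicate 2), whereas for the 10 genes that median was 0.48. Both number 1 libraries were above both number 2 libraries for Nefl, Nefm, Ina, Nfasc and Gap43, or 5 of 10, against 14.8% of all genes and 23.5% of those that reached 1 TPM throughout.

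**Figure D4:**
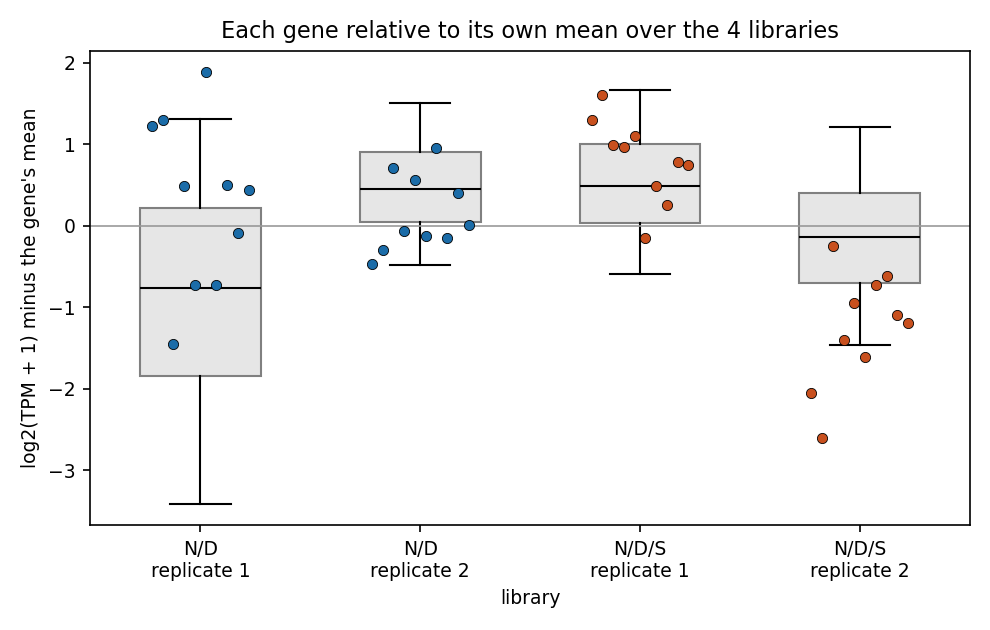
log2(TPM + 1) of each gene minus its own mean over the 4 libraries, with 1 point for each of the 10 axonal genes and, in grey, the 12975 genes tested (box for quartiles and median, whiskers for the 5 to 95 percentiles). All 10 axonal genes lie below their mean for the library labelled N/D/S replicate 2. In N/D/S replicate 1, 9 of 10 lie above it.

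The genes whose 4-library profile was nearest to each gene were sought among the 10 genes and the related lists below (56 genes compared), by the root mean square distance of the centred log2 values. Nefl and Nefm were nearest to each other (0.32), in the pair that shares exon bases. Ina was nearest to Gap43 (0.15). Ank2 was nearest to Sptan1 (0.11), the alpha spectrin, and L1cam to Dpysl3 (0.04), a growth cone protein. Nfasc was nearest to Stmn2 (0.12), Sptbn4 to the sodium channel Scn1a (0.08) and Nefh to Epb41 (0.25). Ank3 had no near neighbour, its closest being Synm at 0.73. These distances rest on 4 libraries and describe them only.

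The 4 lists of related genes were read in the same way, and 0 genes of these lists passed the adjusted or the unadjusted threshold of 0.05 (limma). Of the other intermediate filaments, 10 of 11 were tested, with a median difference of -0.21 and 4 above 0. Vim, the filament of progenitors, ranged from 78.3 to 219 TPM, Lmna from 40.3 to 76.8 TPM and Lmnb1 from 9.91 to 37.9 TPM over the libraries. Of the spectrins, adducins and other ankyrin partners, 10 of 13 were tested, with a median of 0.47 and 8 above 0. Here Sptan1 ranged from 17.6 to 69.7 TPM, and the adducins Add1 and Add2, which cap actin beneath the membrane, from 93.2 to 203 TPM and from 71.1 to 169.8 TPM. Of the partners of the initial segment, node and L1 family, 13 of 18 were tested, with a median of -0.06 and 6 above 0. Nrcam ranged from 13.5 to 108 TPM, Chl1 from 7.21 to 145 TPM and Cntnap2, of the juxtaparanode, from 12.4 to 47.3 TPM. Of the genes of the growth cone and axon outgrowth, 14 of 15 were tested, with a median of -0.29 and 2 above 0. Marcksl1 ranged from 1123 to 1434 TPM and Calm2 from 1096 to 2087 TPM. The library labelled N/D/S replicate 2 was the lowest for 4 of the 10 other intermediate filaments, 3 of the 10 spectrin and adducin genes, 5 of the 13 initial segment and L1 partners and 10 of the 14 growth cone genes, beside the 29.2% of all genes (47.4% of those that reached 1 TPM throughout) given above. The lists were not tested against each other.

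Cell type markers were set beside the axonal genes. The 9 neuron markers summed to 4559 and 3398 TPM in N/D and to 5155 and 3399.8 TPM in N/D/S, while the 10 axonal genes summed to 2522 and 1522 TPM in N/D and to 3030 and 606 TPM in N/D/S. The axonal sum was 55.3% and 44.8% of the neuron marker sum in N/D, and 58.8% and 17.8% in N/D/S. Tubb3 made most of the marker sum of the library labelled N/D/S replicate 2 (2455 TPM), and the other 8 markers were all lowest there. Without Tubb3 the markers summed to 2511 and 1889 TPM in N/D and to 2381 and 944 TPM in N/D/S, and the axonal sum was 100.4% and 80.6% of that in N/D and 127% and 64.1% in N/D/S. The low axonal sum of that library thus went with low values of most neuron markers. Stmn2 ranged from 606 to 1631 TPM and Elavl4 from 103 to 427 TPM over the libraries. Of the 9 neuron markers, 1 (Tubb3) was higher and 2 (Rbfox3 and Elavl3) were lower in N/D/S without overlap. Of all genes tested, 8.69% were higher and 8.23% lower in that way. The 8 markers of forebrain GABAergic neurons, the class that Nkx2-1 and Dlx2 are known to specify, were all detected in every library and summed to 567 and 1148 TPM in N/D and to 1321 and 500.2 TPM in N/D/S. Dlx1 ranged from 97.9 to 519.9 TPM and Dlx5 from 136 to 206 TPM. Of the 7 marker lists, 0 genes passed the adjusted threshold (limma).

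The sums of pluripotent, glial and mesenchyme markers were higher in both number 2 libraries, while the sum of peripheral sensory or motor neuron markers was not ordered in that way. The 5 pluripotency markers summed to 0.247 and 185 TPM in N/D and to 3.50 and 291 TPM in N/D/S, with 4 at 0 in N/D replicate 1, 1 (Tdgf1) in N/D/S replicate 1, and 0 in either number 2 library. Dppa5a led them, from 0 to 266 TPM, followed by Pou5f1 (0 to 19.5 TPM) and Zfp42 (0 to 9.26 TPM). The 9 astrocyte and oligodendrocyte markers summed to 5.31 and 218 TPM in N/D and to 19.4 and 87.7 TPM in N/D/S, with 8, 0, 2 and 1 of them at 0 in the same order. The myelin gene Mbp reached 81.1 TPM and Olig1 reached 47.5 TPM, both in N/D replicate 2. The 5 mesenchyme markers summed to 0.0431 and 35.9 TPM in N/D and to 8.02 and 23.2 TPM in N/D/S, with 3 of them at 0 in N/D replicate 1. That is the library with many genes listed at 0, and its zeros' part in the pluripotent, glial and mesenchyme sums was not tested. The collagens Col3a1, Col1a1 and Col1a2 reached 18.2, 7.40 and 5.39 TPM. Nefl, Nefm, Ina, Nfasc and Gap43 were lower in both number 2 libraries, where these marker sums were higher, but were named for that order. Nefh, Ank2, Sptbn4 and L1cam were instead higher in N/D replicate 2 than in N/D replicate 1. The part of other cells in the axonal values was not tested. The 8 progenitor markers summed to 463 and 1213 TPM in N/D and to 505 and 704 TPM in N/D/S, but only 1 of the 8 was itself higher in both number 2 libraries. Fabp7 ranged from 134 to 906 TPM and Sox2 from 14.5 to 86.3 TPM. Among them Hes5, a Notch target, was at 0 and 22.6 TPM in N/D and at 61.8 and 69.2 TPM in N/D/S (unadjusted p = 0.0446, adjusted p = 1; limma), the only gene of the related and marker lists below 0.05 before adjustment. Its 0 was in the library with many genes listed at 0, whose part was not tested. The 7 markers of peripheral sensory or motor neurons summed to 21.7 and 73.9 TPM in N/D and to 165 and 32.8 TPM in N/D/S, highest in N/D/S replicate 1. There Isl1 made 151 TPM, while Prph was highest in N/D replicate 1 (20.5 TPM).

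**Figure D5:**
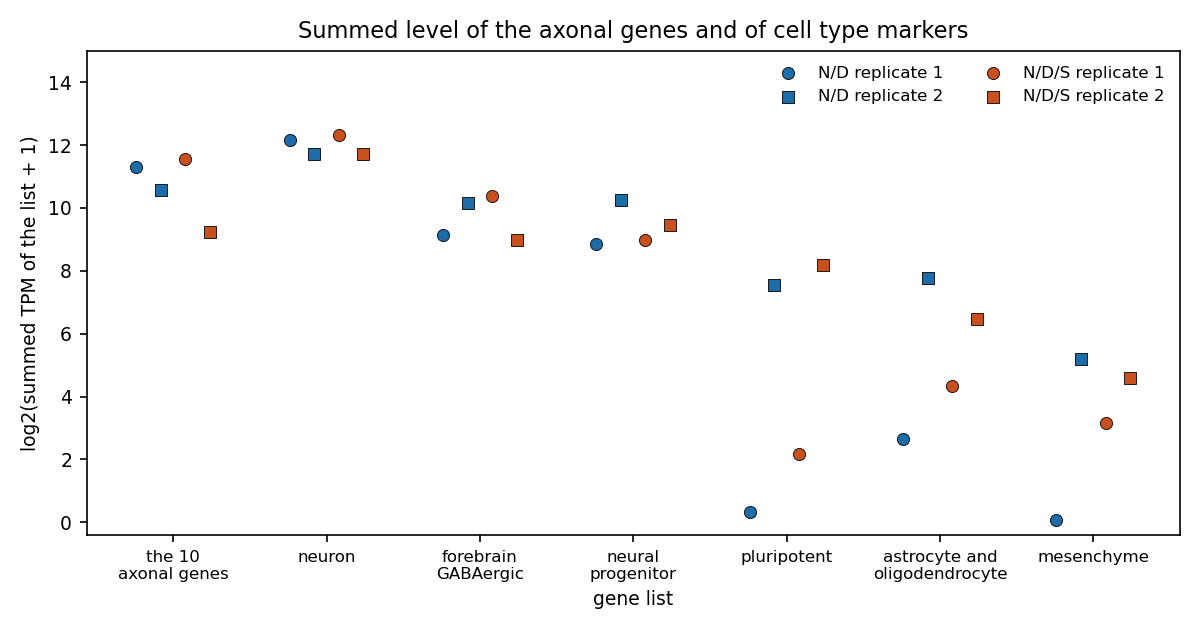
log2(summed TPM + 1) of the 10 axonal genes and of 6 marker lists in each library. The number 2 libraries (squares) are above the number 1 libraries (circles) for the progenitor, pluripotent, glial and mesenchyme lists, and below them for the axonal genes and the neuron markers.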

How the data were processed

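Poly-A RNA of tdTomato+ cells sorted at day 12 was sequenced by the study from 4 libraries, 2 per line, as 100 bp paired-end reads. The TPM values were deposited by the authors, 1 table per library, from kallisto 0.44.0 with GRCm38, per the submitters' processing notes. The transcriptome release, the use of strand and the depth are not given in the sources used here. TPM keep no depth, so no counting interval was formed. The tool sleuth was not run, since it needs resampled estimates that are not used here.

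The 34968 symbols shared by the tables were read, leaving out 24 symbols that had turned into dates. Genes with at least 1 TPM in 2 or more libraries (12975) were fitted as log2(TPM + 1) with limma 3.58.1 in R 4.3.3 and adjusted by Benjamini-Hochberg, and the fit was checked on simulated data. The pseudocount of 1 shrinks differences of low genes. Shares within a family were compared by exact permutation tests over libraries. Sums and shares were computed in Python 3.11.15. Positions are from GENCODE M21 and promoters from RefSeq (GRCm38.p6). The members and lists were chosen with earlier results of these data known. Named were all 10 genes and, of each related or marker list, the 3 genes with the highest mean TPM and any gene with unadjusted p under 0.05. The nearest gene in profile was also named for each of the 10. Some genes that these rules name are not reported here. Other genes were named after their values were seen. Alternatives covered the pseudocount, filter, scaling, variance model, ratio of mean TPM, replicate block and leaving out each library.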

Additional observations from a re-analysis of the deposited data

How the results depend on the processing

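Of 393 alternatives run for 33 results, 370 kept the direction and the side of the threshold or moved by less than the spread, 13 reversed and 10 moved further. Only fold changes of the 10 genes could count as reversed. A median or share that moved by less than the spread counted as kept even where its sign turned. Everything rests on 2 libraries per line, without depth, and where a library is left out its lone partner is assumed to vary like the other line. In the fits without N/D replicate 1 or 2, all 10 genes had the same SE (1.15). Their p-values there followed the size of the difference alone. Without N/D replicate 2, 2213 genes were higher and 160 lower in N/D/S at adjusted p under 0.05 (limma), including 1 other intermediate filament gene, 2 spectrin list genes and none of the 10 axonal genes. With any other library left out these counts were 0 (ranges 0 to 2213, 0 to 160, 0 to 1 and 0 to 2). With a variance trend 5 genes were higher and 1 lower. The cause was not tested.

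Over the leave-one-out fits the log2 difference ran from -2.43 to 0.92 for Nefl, from -3.10 to 1.10 for Nefm, from -0.33 to 1.83 for Nefh, from -1.61 to 0.75 for Ina and from -0.87 to 1.18 for Ank2. It ran from -2.77 to -0.76 for Ank3, from -1.08 to 0.61 for Sptbn4, from -0.79 to 0.0856 for Nfasc, from -1.25 to 0.62 for L1cam and from -1.42 to 0.52 for Gap43. The library labelled N/D/S replicate 2 decided the sign for Nefl, Nefm, Ina, Sptbn4, Nfasc, L1cam and Gap43. N/D replicate 1 also decided it for Nefl, Nefh and Ank2, N/D/S replicate 1 for Ank2 and N/D replicate 2 for Sptbn4. The median ran from -1.34 (without N/D/S replicate 1) to 0.69 (without N/D/S replicate 2) for the 10 axonal genes, from -0.25 to 0.47 for other intermediate filaments and from -0.86 to 0.20 for growth cone genes. It ran from -0.48 to 1.21 for spectrins and adducins, from -0.84 to 1.02 for initial segment partners and from -0.29 to 0.88 for all genes tested, so each list's sign turned with the library left out. The extremes 0.47 and -0.86 were those without N/D/S replicate 1. As a ratio of the lines' mean TPM, the log2 difference was -0.18 for Nefl, -0.03 for Nefm, -0.02 for Ina, -0.05 for L1cam and -0.17 for Gap43, nearer 0 by over 1.5 times than in the fit, whereas it was 0.36 for Ank2 and -0.75 for Sptbn4, farther from 0. Nefh became -0.36 with quantile normalization, which moved the median of all genes from 0.26 to -0.05, and 1.88 and 1.07 with pseudocounts of 0.1 and 0.5. The median of the initial segment partners was 0.23 with a pseudocount of 0.1, 0.07 without the filter and -0.45 with quantile normalization. The median of all genes was -0.15 when genes had to reach 1 TPM throughout, a filter that Nefh and Sptbn4 did not pass, and 0.15 when scaled to the neuron marker sum, an alternative chosen after seeing the data.

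With the replicate number as a block, 0 genes were higher and 0 lower at adjusted p under 0.05 (3 and 6 at unadjusted p under 0.05; limma), and no other call changed. Over all genes tested, same-numbered libraries did not deviate together (r = 0.02), so the numbers were not taken to pair them. Even so, 5 of the 10 axonal genes and the pluripotent, glial and mesenchyme sums split by number.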
